A study of Homo sapiens with 6 samples.

Results

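FLI1, EWSR1 and TAF15 are described here in A673, a human Ewing sarcoma line: the gene targeted by the siRNA, its partner in the EWS-FLI1 fusion, and a relative of that partner. They were taken by symbol from the exon count table, which gave 3 genes of 27234 in all, and each of the 3 had enough counts to be tested. The cells of 3 libraries received siRNA against FLI1 (siFLI1) and those of 3 libraries a scrambled siRNA (siControl), and RNA was taken at 48 h. All 6 libraries share the EWS-FLI1 fusion that the labels give for the line, growth in DME medium with fetal bovine serum, and a transfection. The series is named for the binding of ETS proteins to the glucocorticoid receptor, and its 1 comparison is between these groups. One cell line and a transient knockdown limit what the groups stand for, and the sources used here do not give the sequence of the oligonucleotide.

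EWSR1 and TAF15 belong to the FET family of RNA-binding proteins, which have an N-terminal stretch rich in tyrosine, serine, glycine and glutamine that can activate transcription, and an RNA-binding C-terminal part. FLI1 is a transcription factor of the ETS family, which bind DNA at a GGAA core. In most Ewing sarcomas a translocation joins the N-terminal part of EWSR1 to the DNA-binding C-terminal part of FLI1, and the fusion gene is transcribed from the EWSR1 promoter. The fusion protein binds single GGAA sites and GGAA repeats, activating some genes and repressing others.

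The libraries read the 3' ends of polyadenylated RNA, so the end of each transcript decides what a count means. The FLI1 end is carried by the fusion transcript and by any unfused FLI1 transcript, which these counts cannot tell apart. The EWSR1 end is not part of EWS-FLI1, so EWSR1 counts come from outside it. The FLI1 row (NM_001271012) lies on the plus strand of chromosome 11 from 128686535 to 128813267 (hg38). Of 5 protein-coding FLI1 transcripts in GENCODE release 29, 4 end within 10 bases of the end of that row, and the transcript matched to the row has a last exon of 2808 bases. The EWSR1 row (NM_001163285) lies on the plus strand of chromosome 22 from 29268009 to 29300525. Of its 15 protein-coding transcripts 8 end within 200 bases of the row's end. The TAF15 row (NM_003487) lies on the plus strand of chromosome 17 from 35809455 to 35847242, and 4 of 7 protein-coding transcripts end within 200 bases of its end. The last protein-coding end of TAF15 is at 35864615, past the row, and 3' ends read there would fall outside it. The table lists 2 copies for TAF15 and 1 copy each for FLI1 and EWSR1; the sources used here do not say how reads that match more than 1 place were counted.

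**Figure D1:**
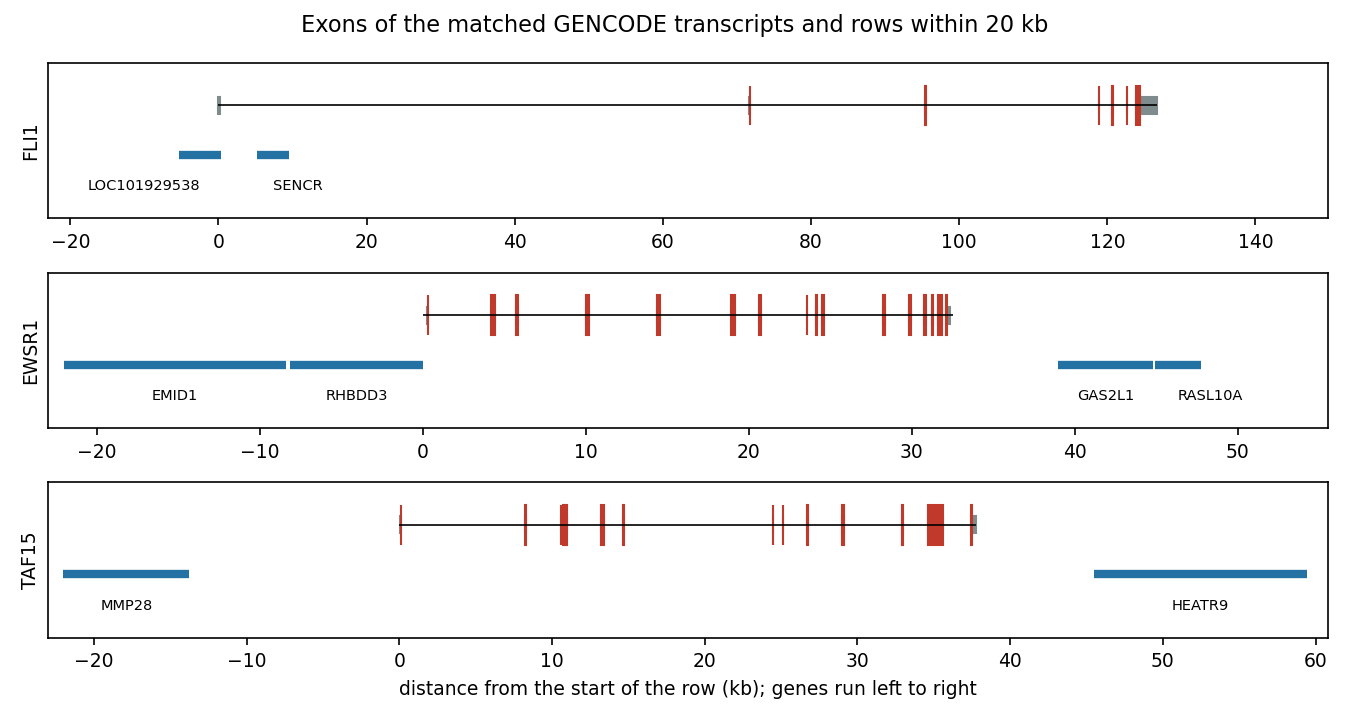
Exons of the GENCODE release 29 transcripts matched by RefSeq ID to the FLI1, EWSR1 and TAF15 rows (grey untranslated, red coding) and the other rows of the table within 20 kb (blue), against distance in kb from the start of the row, with the 3' ends of the 3 genes at the right. The last exon of FLI1 spans 2808 bases, most of it untranslated; the EWSR1 transcript drawn ends 189 bases before its row and has 2207 exon bases against 2641 in the row.

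The EWSR1 promoter is shown because it starts both the unfused EWSR1 transcript and the fusion transcript, and so the FLI1 ends counted from the fusion as well. The sequence is from RefSeq (GRCh38.p14, chr22:29268018-29268317, plus strand) and runs 5' to 3' from 250 bases before to 50 bases after the gene's start used for that window. This start lies downstream of the start of the EWSR1 row at 29268009, so the whole window falls within the row. Capitals mark GGAA, the ETS core, and TTCC, the same core on the other strand.
EWSR1 promoter: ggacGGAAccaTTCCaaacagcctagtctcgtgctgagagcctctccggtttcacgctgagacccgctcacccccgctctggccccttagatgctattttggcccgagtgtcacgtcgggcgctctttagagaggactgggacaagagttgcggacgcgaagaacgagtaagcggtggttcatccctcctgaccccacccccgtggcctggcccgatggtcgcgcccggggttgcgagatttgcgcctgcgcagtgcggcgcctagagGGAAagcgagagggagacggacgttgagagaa
The window holds GGAA 2 times and TTCC 1 time, and of 35116 promoter windows of the same length 66.0% hold at least 3 such matches. The repeat GGAAGGAA, searched on both strands together with TTCCTTCC, is not among the letters of this window and is found in 3.67% of all windows; its matches also count as GGAA matches. The window is 62.7% G and C, against a median of 58.7%. The EWSR1 row starts 14 bases from the row of RHBDD3, which runs the other way. RHBDD3, a rhomboid-like protein gene, stood at −0.15 ± 0.43 (log2 fold change ± SE; adjusted p = 0.937 in edgeR).

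Libraries differed in depth. The counts assigned to genes summed to between 417145 and 1893606 per library, and siFLI1 replicate 3 was the shallowest, with 10.1% of the total in its column header assigned to genes against 41.2% to 61.0% in the other libraries. It was also the farthest out on the first principal component (76.1, the others from −29.9 to 2.68). On the second, siFLI1 replicates 1 and 2 were at 36.4 and 37.4. There siFLI1 replicate 3, at −18.9, lay among the siControl libraries (−28.6 to −12.9). On the third, siControl replicate 1 was the farthest out (−42.7, the others from −11.8 to 30.7). Some results are also given without both siFLI1 replicate 3 and siControl replicate 1. Of the Ewing sarcoma markers CD99, NKX2-2, STEAP1, NR0B1, BCL11B, PAX7 and GLG1, all 7 had counts. Their summed level was 1050 to 1192 CPM (counts as CPM, with the TMM scaling of edgeR between libraries) in siFLI1 and 1551 to 1912 CPM in siControl. NKX2-2, STEAP1, NR0B1 and BCL11B are also on the list of genes activated by the fusion that is read further down, so these sums are not separate from it. STEAP1 averaged 379 CPM in siFLI1 and 688 CPM in siControl. CD99, PAX7 and GLG1, which are not on that list, overlapped between the groups. In siFLI1 and siControl, CD99 averaged 83.0 and 100.9 CPM, PAX7 28.1 and 61.9 CPM, and GLG1 512.3 and 591.5 CPM. Markers of blood, endothelial, epithelial and fibroblast cells summed to 3.32 to 61.6 CPM in siFLI1 and 6.44 to 19.7 CPM in siControl over 13 genes, with CD3E and KRT5 at 0. The highest single value among them was 42.8 CPM for the leukocyte gene PTPRC in siFLI1 replicate 3. In bulk RNA, fewer cells that express a gene and less RNA per cell cannot be told apart.

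FLI1 was lower in each siFLI1 library than in any siControl library, while EWSR1 and TAF15 overlapped between the groups. FLI1 had 34, 64 and 9 counts in siFLI1 replicates 1, 2 and 3, against 117, 118 and 73 counts in siControl replicates 1, 2 and 3. Scaled to CPM, these were 19.0, 42.5 and 24.1 in siFLI1 and 63.0, 69.1 and 62.4 in siControl. On this scale the siControl values lay close together, and the siFLI1 values did not. The TMM factor of siControl replicate 1 was 1.23, against 0.936 to 0.987 in the other libraries, so the closeness depends in part on the scaling. Set against the siControl mean, FLI1 stood at 29.3%, 65.6% and 37.2% in siFLI1 replicates 1, 2 and 3. The exact Poisson 95% interval of siFLI1 replicate 2, from 32.7 to 54.3 CPM, lay wholly above that of siFLI1 replicate 1, from 13.2 to 26.6 CPM. Its upper end overlapped the intervals of siControl replicate 3, from 48.9 to 78.5 CPM, and siControl replicate 1, from 52.1 to 75.5 CPM. The interval of siFLI1 replicate 3, resting on 9 counts, ran from 11.02 to 45.7 CPM. Such intervals cover counting error only, and any copies made by PCR that were not removed before counting are included in them.

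FLI1 averaged 28.5 ± 12.4 CPM in siFLI1 and 64.8 ± 3.71 CPM in siControl (SD, n = 3 each), a log2 fold change of −1.16 ± 0.36 (SE). Its 95% interval, without adjustment over genes, put FLI1 at 26.5% to 76.1% of siControl. In edgeR's quasi-likelihood test adjusted by the Benjamini-Hochberg method over 9420 genes, 0 of the 3 genes passed 0.05 (adjusted p = 0.17 for FLI1), where 1.45% of all tested genes passed in either direction and 0.117% were lower in siFLI1. DESeq2 and limma-voom also called 0 of the 3. At an unadjusted p under 0.05 edgeR gave 1 of the 3, FLI1, where 10.8% of all tested genes had such a p in either direction and 4.13% with siFLI1 lower. FLI1 ranked 315th of the 9420 genes by p, and 184 genes (1.95%) had a more negative log2 fold change. FLI1 was the 1 gene of the 3 whose groups did not overlap, a property of 16.6% of tested genes in either direction and 7.71% with siFLI1 lower. A two-sided exact permutation test of its 6 CPM values gave p = 0.1, and a design of 3 against 3 cannot go lower.

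EWSR1, whose unfused product binds RNA and takes part in transcription and splicing, had 234, 192 and 54 counts in siFLI1 replicates 1, 2 and 3, which made 131, 128 and 145 CPM. In siControl replicates 1, 2 and 3 its counts were 245, 284 and 133, which made 132, 166 and 114 CPM. The highest and the lowest of the 6 values were both siControl libraries, and all 3 siFLI1 values lay between them. EWSR1 averaged 134 ± 9.04 CPM in siFLI1 and 137 ± 26.7 CPM in siControl (SD, n = 3 each). The log2 fold change was −0.04 ± 0.25 (SE; edgeR adjusted p = 0.973; exact permutation p = 0.8). Its 95% interval ran from 66.6% to 142% of siControl, so a loss to 44.0%, the FLI1 mean as a share of siControl, lay outside it. The interval of FLI1 itself, 26.5% to 76.1%, overlapped that of EWSR1.

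TAF15, a FET protein that also associates with the general transcription factor TFIID, was measured with few counts. Its 44, 26 and 5 counts in siFLI1 replicates 1, 2 and 3 made 24.6, 17.3 and 13.4 CPM. Its 66, 31 and 20 counts in siControl replicates 1, 2 and 3 made 35.5, 18.2 and 17.1 CPM. The highest value was that of siControl replicate 1, and the other siControl values lay within the siFLI1 range. TAF15 averaged 18.4 ± 5.69 CPM in siFLI1 and 23.6 ± 10.4 CPM in siControl (SD, n = 3 each). Its log2 fold change was −0.31 ± 0.46 (SE; edgeR adjusted p = 0.875; exact permutation p = 0.6). The 95% interval of 41.0% to 159% of siControl holds the FLI1 mean of 44.0% as well as no change, so the data do not exclude a loss of that size for TAF15. Without siControl replicate 1 the log2 fold change was 0.09, and without both siControl replicate 1 and siFLI1 replicate 3 it was 0.24.

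**Figure D2:**
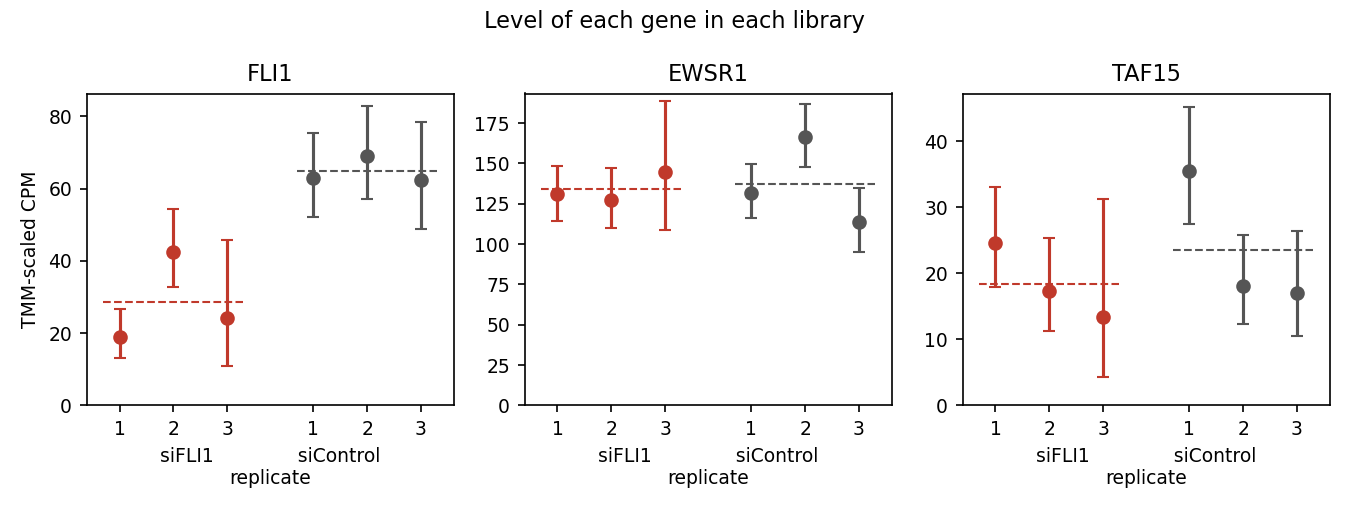
TMM-scaled CPM (linear axes from 0, a separate scale for each gene) of FLI1, EWSR1 and TAF15 in the 3 siFLI1 libraries (red) and 3 siControl libraries (grey); bars are exact Poisson 95% intervals of the counts and dashed lines group means. FLI1 means were 28.5 CPM in siFLI1 and 64.8 CPM in siControl, and each red point of FLI1 lies below each grey one.

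A ratio of counts of 2 genes within a library needs no scaling between libraries, and so shows how far 1 gene moved relative to the other. FLI1 made up 12.7%, 25.0% and 14.3% of the counts of FLI1 and EWSR1 together in siFLI1 replicates 1, 2 and 3, of 268, 256 and 63 counts. In siControl replicates 1, 2 and 3 its share was 32.3%, 29.4% and 35.4%, of 362, 402 and 206 counts. The groups did not overlap. The closest libraries were siFLI1 replicate 2, with an exact (Clopper-Pearson) 95% interval of 19.8% to 30.8%, and siControl replicate 2, with 24.9% to 34.1%, and these intervals overlapped. The mean share was 17.3 ± 6.70% in siFLI1 and 32.4 ± 3.04% in siControl (SD, n = 3 each). On the log2 scale, with 0.5 added to each count, the FLI1 to EWSR1 ratio differed by −1.22 between siFLI1 and siControl. A two-sided exact permutation test gave p = 0.1, the smallest possible, and 0.3 after Benjamini-Hochberg adjustment over the 3 ratios computed.

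Against TAF15 the share of FLI1 was 43.6%, 71.1% and 64.3% in siFLI1 replicates 1, 2 and 3, and 63.9%, 79.2% and 78.5% in siControl replicates 1, 2 and 3. Here siFLI1 replicates 2 and 3 lay above siControl replicate 1, the library in which TAF15 was highest. The log2 ratio differed by −0.96 between siFLI1 and siControl (exact permutation p = 0.2, adjusted 0.3). The share of TAF15 in the counts of TAF15 and EWSR1 was 15.8%, 11.9% and 8.47% in siFLI1 and 21.2%, 9.84% and 13.1% in siControl, and the groups overlapped (log2 difference −0.27; exact permutation p = 0.6, adjusted 0.6). Without siControl replicate 1 that difference was 0.08.

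**Figure D3:**
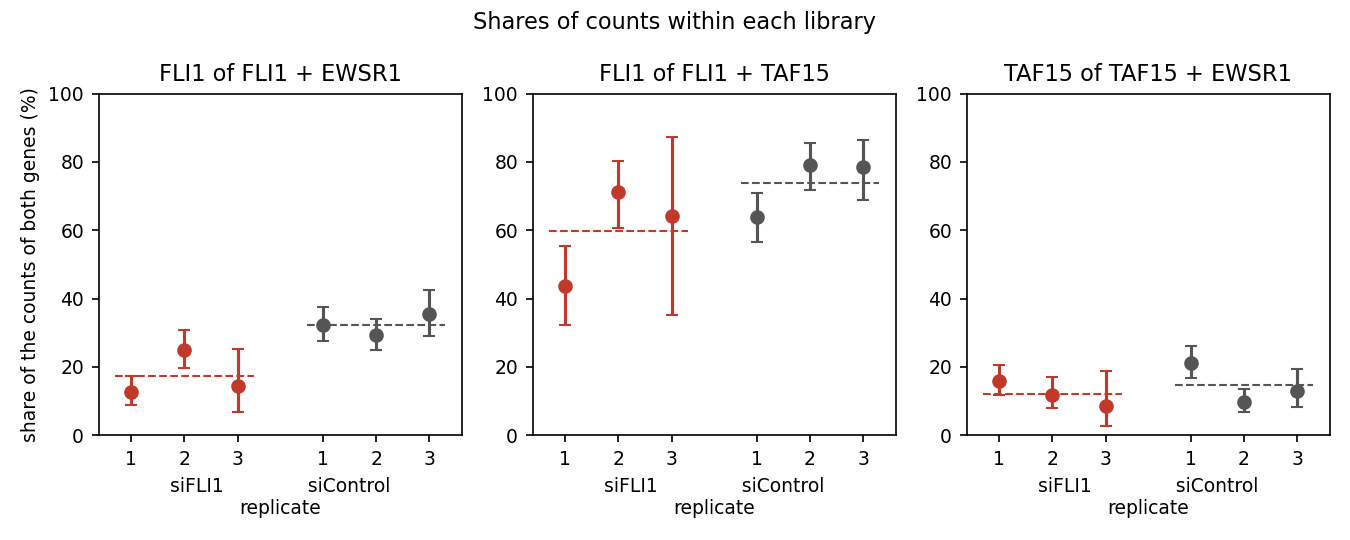
Share (%, axes from 0 to 100) of the first gene in the summed counts of a pair, in each siFLI1 (red) and siControl (grey) library; bars are exact Clopper-Pearson 95% intervals and dashed lines group means. The FLI1 share against EWSR1 was 12.7% to 25.0% in siFLI1 and 29.4% to 35.4% in siControl.

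The direction of the FLI1 difference did not rest on the scaling or on any 1 library among the settings run. FLI1 had a negative log2 fold change in each of 15 alternatives, with siFLI1 at 33.1% to 51.3% of siControl, and its 95% interval lay below 0 in all 14 that give one. Those extremes were the fits without siFLI1 replicate 2, which had the highest FLI1 value of its group, and without siFLI1 replicate 1, which had the lowest. It passed 0.05 after adjustment in 0 of the 15 (adjusted p 0.0666 to 0.479). EWSR1 lay between 89.6% and 109% of siControl and TAF15 between 65.0% and 118% over the same alternatives, and neither was called in any of them. Both changed sign in some of them.

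**Figure D4:**
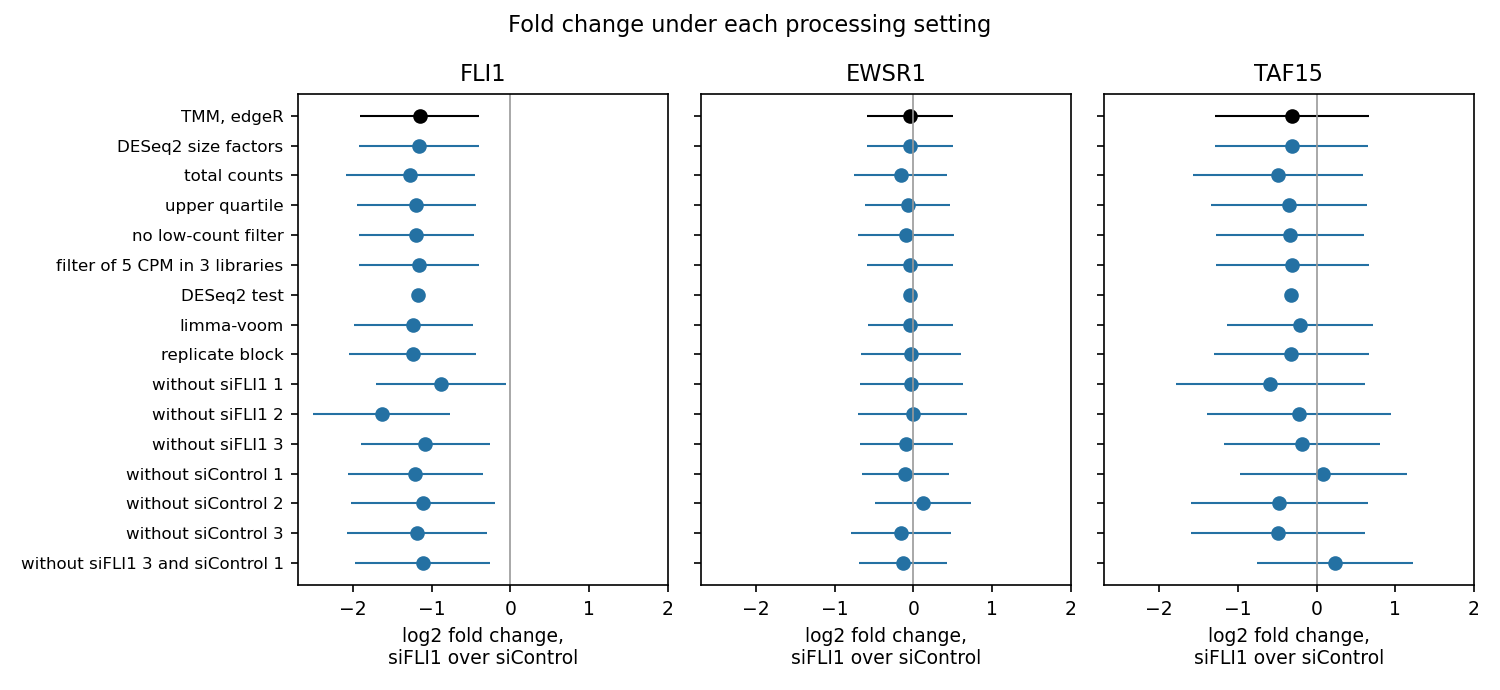
Log2 fold change of siFLI1 over siControl for FLI1, EWSR1 and TAF15 under the reported fit (black) and 15 alternatives (blue); lines are 95% intervals, which DESeq2 was not used to give. FLI1 stayed between −1.64 and −0.88, while EWSR1 and TAF15 lay on both sides of 0.

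FLI1 overlaps SENCR and LOC101929538, non-coding rows on the other strand near its start. SENCR had 4 counts, all in siFLI1 replicate 1, and LOC101929538 had 0. Downstream of EWSR1, GAS2L1, an actin and microtubule linker gene, stood at −0.03 ± 0.63 (log2 fold change ± SE; adjusted p = 0.995 in edgeR). Near TAF15, the metalloproteinase gene MMP28 had 5 counts in all and HEATR9 had 0, and the EWSR1 neighbours EMID1 and RASL10A had 0 and 4.

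Genes that the literature places under EWS-FLI1 were read beside FLI1 itself. The lists overlap with gene lists already known to differ in these libraries and are not independent evidence of direction. Of 20 genes known to be activated by the fusion, 18 were tested, and 2 fell and 0 rose (edgeR), where 0.117% of all tested genes fell. At an unadjusted p under 0.05, 11 were lower and 0 higher, where 4.13% of all tested genes were lower. The median log2 fold change was −0.89, against 0.01 for all tested genes, and 17 of the 18 values were negative. NR0B1, an orphan nuclear receptor with a GGAA repeat in its promoter, had 86.1, 93.7 and 53.6 CPM in siFLI1 and 286, 172 and 188 CPM in siControl (log2 fold change −1.43 ± 0.30, SE; adjusted p = 0.025). The protein kinase C gene PRKCB had 84.4, 85.0 and 75.0 CPM in siFLI1 and 208, 199 and 147 CPM in siControl (−1.17 ± 0.26; adjusted p = 0.0369). The transcription factor FEZF1 and the lipase LIPI had log2 fold changes of −1.25 ± 0.30 and −1.10 ± 0.27, close to that of FLI1, and did not pass (edgeR adjusted p = 0.0614 and 0.0654). Each fit that left out 1 library called 0 of the 18. Leaving out both siFLI1 replicate 3 and siControl replicate 1 called 4, all lower, where 32 of 9577 tested genes were called lower.

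Of 10 genes known to be repressed by the fusion, 8 were tested, and 5 rose and 0 fell (edgeR), where 1.34% of all tested genes rose. Their median log2 fold change was 1.81, and 6 of the 8 values were positive. The cell cycle inhibitor CDKN1A, named after its values were seen, was lower in each siFLI1 library (39.1, 47.8 and 34.8 CPM) than in any siControl library (63.0, 58.6 and 56.4 CPM) and did not pass (edgeR adjusted p = 0.588). LOX, which crosslinks collagen, had 587, 691 and 747 CPM in siFLI1 and 36.6, 62.1 and 71.8 CPM in siControl. The growth factor-binding protein gene IGFBP3 had 115, 134 and 88.4 CPM in siFLI1 and 10.2, 8.78 and 10.3 CPM in siControl, and the Wnt antagonist DKK1 53.1, 104 and 88.4 CPM in siFLI1 and 0.54, 1.76 and 4.27 CPM in siControl. PHLDA1, a pleckstrin homology domain gene, rose by 2.25 ± 0.27 (SE) on the log2 scale, and TGFBR2, a TGF-beta receptor chain, by 1.37 ± 0.30 (edgeR adjusted p = 0.000288 and 0.0353). Fits that left out 1 library each called 4 of these.

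The siFLI1 library with the highest FLI1 value, replicate 2, lay between the other siFLI1 libraries in the median of each target list. Replicate 3 rested on 9 FLI1 counts, and its Poisson interval of 11.02 to 45.7 CPM holds the value of replicate 2. In siFLI1 replicates 1, 2 and 3, with FLI1 at 19.0, 42.5 and 24.1 CPM, the median activated gene stood at −0.997, −0.77 and −0.71 on the log2(CPM + 1) scale against the siControl mean. In each of the 3, 14 of the 18 activated genes lay below all siControl libraries (77.8%), as did 24.8%, 26.0% and 33.1% of all tested genes. Above all siControl libraries lay 0, 0 and 2 of the 18, as did 26.1%, 26.3% and 31.9% of all tested genes. The repressed genes had medians of 1.57, 1.65 and 2.16 in siFLI1 replicates 1, 2 and 3, and 6 of the 8 lay above all siControl libraries in each, as did 26.1%, 26.3% and 31.9% of all tested genes. In the same libraries 2, 2 and 1 of the 8 lay below all siControl libraries. With 3 libraries no relation between FLI1 and its targets was tested.

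Of 16 TFIID genes (TBP and its associated factors) 11 were tested, and 0 passed in edgeR (1.45% of all tested genes did), in DESeq2 or in limma-voom, with 0 at an unadjusted p under 0.05. Their log2 fold changes ran from −0.56 for TAF2 to 0.33 for TAF9, with a median of −0.19. TAF10 and TAF7 were at −0.27 ± 0.39 and −0.22 ± 0.32 (SE). Of 25 genes for proteins that bind, modify, import or work with FET proteins, 23 were tested, and 1 rose and 0 fell (edgeR), where 1.34% of all tested genes rose and 0.117% fell. At an unadjusted p under 0.05, 2 were lower and 1 higher, where 4.13% of all tested genes were lower. The median was −0.18, and 17 of the 23 values were negative, as were 4668 of all 9420. The 1 called, ZFP36L1, encodes an mRNA decay factor whose link to FET proteins is uncertain. It had 164, 163 and 145 CPM in siFLI1 and 57.1, 31.6 and 38.5 CPM in siControl (log2 fold change 1.89 ± 0.29; adjusted p = 0.00262). The splicing factor HNRNPA1, which has many pseudogene copies that could take some of its reads, was at −0.68 ± 0.24 (edgeR adjusted p = 0.277). The arginine methyltransferase PRMT5 was at −0.67 ± 0.29 and the RNA polymerase subunit POLR2E at −0.71 ± 0.33 (edgeR adjusted p = 0.421 and 0.467). TNPO1, the importin that carries FET proteins into the nucleus, was at −0.38 ± 0.26, and PRMT1, which methylates them, at −0.42 ± 0.32.

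Of 23 genes other than FLI1 that are joined to FET genes in tumours, 13 were tested, and 1 rose and 0 fell (edgeR), where 1.34% of all tested genes rose and 0.117% fell, and the median log2 fold change was −0.06. The ETS genes ERG, ETV4 and FEV, partners of EWSR1 in other Ewing sarcomas, had too few counts to be tested, and ETV1 was at 0.05 ± 0.36 (SE). CREB3L1, a membrane-bound transcription factor joined to FET genes in a fibrous sarcoma, had 80.5, 69.8 and 26.8 CPM in siFLI1 and 8.62, 12.9 and 11.1 CPM in siControl (log2 fold change 2.50 ± 0.43; adjusted p = 0.00675). Its 3 siFLI1 libraries lay above all siControl libraries. The list had 0 called in each fit that left out replicate 1 or 2 of either group. TFCP2, ATF1 and ZNF384 were at −0.77 ± 0.48, −0.65 ± 0.41 and 0.62 ± 0.52, and their groups overlapped.

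**Figure D5:**
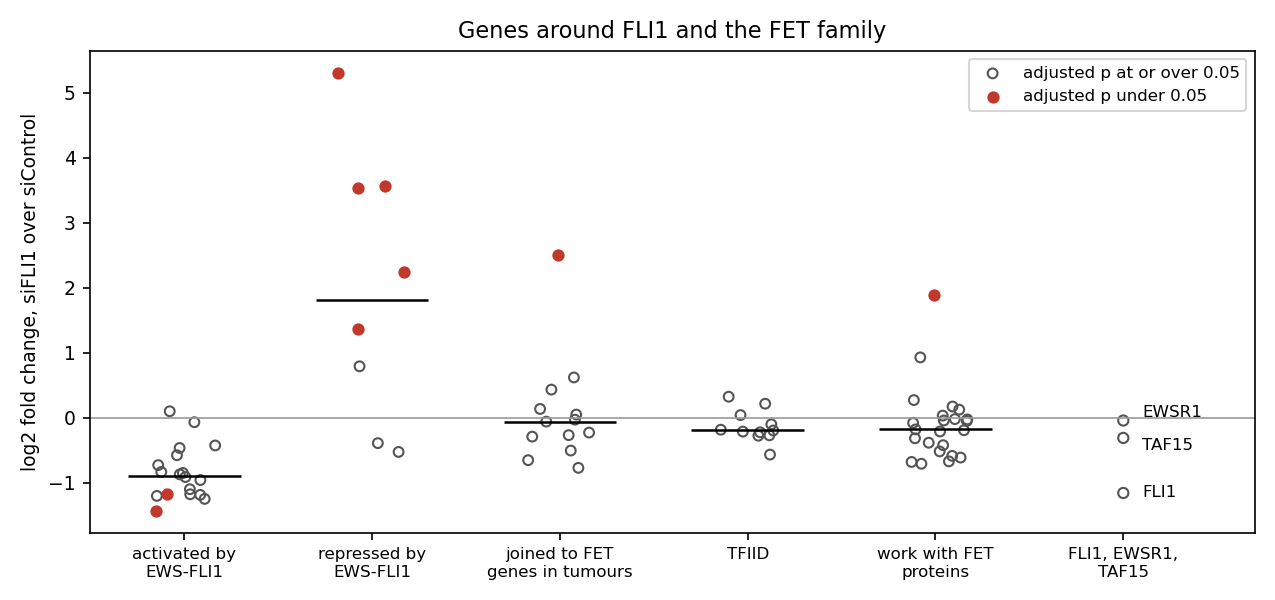
Log2 fold change of siFLI1 over siControl for tested genes of 5 lists and for FLI1, EWSR1 and TAF15; filled red points passed an adjusted p of 0.05, open points did not, bars are list medians, and sideways scatter carries no value. Medians were −0.89 for activated and 1.81 for repressed genes, and lay between −0.19 and −0.06 for the other 3 lists.

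The genes most like each of the 3 over the 6 libraries were named from 8338 genes with a mean of at least 10 CPM, by Pearson's r of log2(CPM + 1), as a description. For FLI1 these were the somatostatin receptor SSTR1 (r = 0.994), DKC1, a pseudouridine synthase gene (0.989), and the nuclear pore gene NDC1 (0.981). SSTR1 had 3.35, 9.96 and 5.36 CPM in siFLI1 replicates 1, 2 and 3, and 18.3, 22.3 and 21.4 CPM in siControl. Having been picked for likeness, SSTR1 shares the order of FLI1 among the siFLI1 libraries by that choice. It was below 10 CPM in each siFLI1 library and did not pass the test (log2 fold change −1.69, edgeR adjusted p = 0.209). For EWSR1 the leading genes were NDUFA2 (0.977), RIF1 (0.973) and C4orf32 (0.968), and for TAF15 C6orf136 (0.995), BDH2 (0.994) and RHOA (0.994). None of these 9 passed the edgeR test, and none of the 3 genes led another's list. The correlation between FLI1 and EWSR1 over the 6 libraries was 0.04, that between FLI1 and TAF15 0.19 and that between TAF15 and EWSR1 −0.15. All such values share the 6 libraries, their depths and their scaling.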

How the data were processed

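Values were deposited by the authors as raw counts per gene over exons, 1 RefSeq transcript for each gene, in 1 table of 27234 rows with no sample column left out. Per the labels' protocols the libraries were a bulk 3' form of MARS-seq with molecular barcodes. The submitters' processing notes name bcl2fastq, HISAT 0.1.5, HOMER and hg38. The sources used here do not say whether barcodes were collapsed or strand was used. Groups and replicate numbers come from the titles. Nothing says that libraries came from separate cultures, and p-values then reflect library-to-library spread, possibly technical.

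Genes were kept with filterByExpr (minimum count 10, minimum total 15; 9420 genes), scaled by TMM and tested with edgeR 4.0.16 under R 4.3.3 (robust glmQLFit and glmQLFTest, with group as the 1 term). Adjusted p-values are Benjamini-Hochberg over all tested genes, threshold 0.05. Standard errors come from the F statistic. Alternatives were other scalings and filters, DESeq2 1.42.0, limma-voom (limma 3.58.1), a replicate block and leaving out libraries. Promoter windows are RefSeq's (GRCh38.p14), and 1 of the 3 genes, EWSR1, matched. The genes, lists and tests were chosen with earlier results of these data known. Beside FLI1, EWSR1 and TAF15, the named genes are those within 20 kb, each list's called genes and its 4 smallest p, the 3 genes most like each, and leading markers. TNPO1, PRMT1, ETV1, ERG, ETV4, FEV and CDKN1A were added for their roles or after their values were seen. Some listed genes are not reported here.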

Additional observations from a re-analysis of the deposited data

How the results depend on the processing

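With 3 libraries a group, and 9 FLI1 and 5 TAF15 counts in siFLI1 replicate 3, few libraries and low depth limit what these values show. EWSR1 libraries also differed by more than counting error. Its exact Poisson 95% intervals were 147.5 to 186.8 CPM in siControl replicate 2 and 95.2 to 134.7 CPM in siControl replicate 3. Of 165 alternative values, 140 were taken as unchanged. For a fold change this meant the same direction and side of the threshold, for a ratio the same direction alone, and for a count a move of at most 1.5 times. Leaving out 1 library gave log2 fold changes of −1.64 to −0.88 for FLI1, −0.16 to 0.12 for EWSR1 (positive without siControl replicate 2) and −0.586 to 0.0886 for TAF15. Log2 ratios ran from −1.58 to −0.99 (FLI1 to EWSR1), −1.31 to −0.49 (FLI1 to TAF15) and −0.562 to 0.0833 (TAF15 to EWSR1). Without siFLI1 replicate 3 and siControl replicate 1 together, the log2 FLI1 to TAF15 ratio was −1.42. TAF15 was then at 0.24 and its ratio to EWSR1 at 0.31. These sign changes rest on siControl replicate 1 for TAF15 and siControl replicate 2 for EWSR1; the cause was not tested.

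Of all genes, 137 were called, against 368 with no low-count filter, 213 in DESeq2 and 65 to 126 without 1 library (83 and 74 when siFLI1 replicates 1 and 2 were left out in turn, 65 and 72 for siControl replicates 2 and 3). Activated targets called were 6 with no filter, 5 in DESeq2, 1 with the replicate block, 4 without siFLI1 replicate 3 and siControl replicate 1, and 0 to 0 without 1 library; tumour partners called were 0 to 1 without 1 library. The cause was not tested. Without siFLI1 replicate 3 and siControl replicate 1 together, 193 of 9577 tested genes were called, 32 of them lower in siFLI1. Total counts moved the median of all genes to −0.12.

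Same-numbered libraries had r of −0.03, −0.01 and −0.05 for replicates 1, 2 and 3 between their deviations from the group means. The highest r of any siFLI1 and siControl library was 0.12, for siFLI1 replicate 1 and siControl replicate 3. With 3 libraries a group such values cannot decide whether same-numbered libraries were handled together, and the labels do not say. With the replicate block FLI1 was at −1.24 (edgeR adjusted p = 0.189), EWSR1 at −0.03 and TAF15 at −0.32, and 101 genes were called. The smallest p of the sign-flip test of 3 pairs is 0.25.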
